A study of Mus musculus with 6 samples.

Results

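The 10 genes described here encode enzymes and helpers that fold, trim and crosslink collagen: the prolyl 4-hydroxylase subunits P4ha1 and P4ha3, the collagen chaperone Serpinh1, the lysyl hydroxylases Plod1 and Plod2, the procollagen processing enhancer Pcolce, and the lysyl oxidases Lox, Loxl1, Loxl2 and Loxl3. They were taken by symbol from a table of read counts that holds 38293 genes, and all 10 were among the 14746 genes that passed the filter on low counts. The table comes from RNA-seq of hearts of 6 adult mice on a C57BL/6J (backcrossed) background, collected 14 days after permanent occlusion of the left anterior descending coronary artery. In 3 of them, called Zeb2 cKO, floxed alleles of Zeb2 were combined with a Cre recombinase driven by the murine Myh6 promoter, which is active in cardiomyocytes. The other 3, called Zeb2 fl/fl in the methods and WT in the labels, carried the floxed alleles without Cre and had the same infarct. The labels place the tissue in the border region and the methods in the remote zone, so its distance from the scar cannot be told.

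Collagen chains are modified in the endoplasmic reticulum before they fold. Prolyl 4-hydroxylases stabilize the triple helix, lysyl hydroxylases prepare lysines for crosslinks, and the chaperone HSP47, the product of Serpinh1, accompanies the folded helix. Outside the cell the ends of procollagen are cut off, and lysyl oxidases oxidize lysines so that neighbouring molecules become linked. In the infarcted heart this machinery is known for building the scar, and fibroblasts are known as its main source, whereas the Cre acts in cardiomyocytes. In such bulk tissue fewer cells of a type and less RNA per cell cannot be told apart.

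Total counts per library ran from 37288174 to 51136331, and 60.5 to 67.0% of them came from mitochondrially encoded genes. Levels are given as CPM, the counts scaled to a common library size with TMM normalization. Zeb2 itself reached 61.3, 116 and 71.9 CPM across Zeb2 fl/fl replicates 1 to 3, against 59.6, 72.6 and 66.5 CPM across Zeb2 cKO replicates 1 to 3. On the log2 scale the knockouts differed by -0.33 (standard error 0.25), or by -0.0058 without Zeb2 fl/fl replicate 2. The groups thus overlapped in the targeted gene. The paper reports loss of ZEB2 from cardiomyocytes by qPCR and immunofluorescence, and also finds ZEB2 in macrophages and immune cells. Counts from bulk tissue do not separate these cells, so they cannot show whether cardiomyocytes lost Zeb2. Zeb2 fl/fl replicate 2 stood apart from the other 5 libraries, being the highest of the 6 in 35.2% of all genes tested and in 9 of the 10 described here. The log2 fold change of each of the 10 genes is therefore also given without it, and so are other comparisons where stated.

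No difference between the genotypes passed the test for any of the 10 genes. In edgeR's quasi-likelihood test, 0 of the 10 and 0% of all genes tested passed a Benjamini-Hochberg adjusted p of 0.05, and adjusted p-values of the 10 ran from 0.957 to 0.988. At an unadjusted p under 0.05 there were 1 of the 10 (Lox) and 280 of all genes, and DESeq2 gave 0 calls after adjustment among the 9 for which it returned an adjusted p, Lox being the one without, and called 0.00415% of all genes (1 of 24089). A log2 fold change under -0.2 was held by 9 of the 10, the exception being Plod1, and by 22.6% of all genes tested. The median over the 10 was -0.49, against -0.0069 over all genes tested. Without Zeb2 fl/fl replicate 2, 2 of the 10 (Lox and P4ha3) were under -0.2, where 11.7% of all genes were, 0 were over 0.2, where 14.2% were, and the median was -0.062. For 0 of the 10 did the libraries of one genotype all lie on one side of the other, as they did for 6.36% of genes tested.

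**Figure D1:**
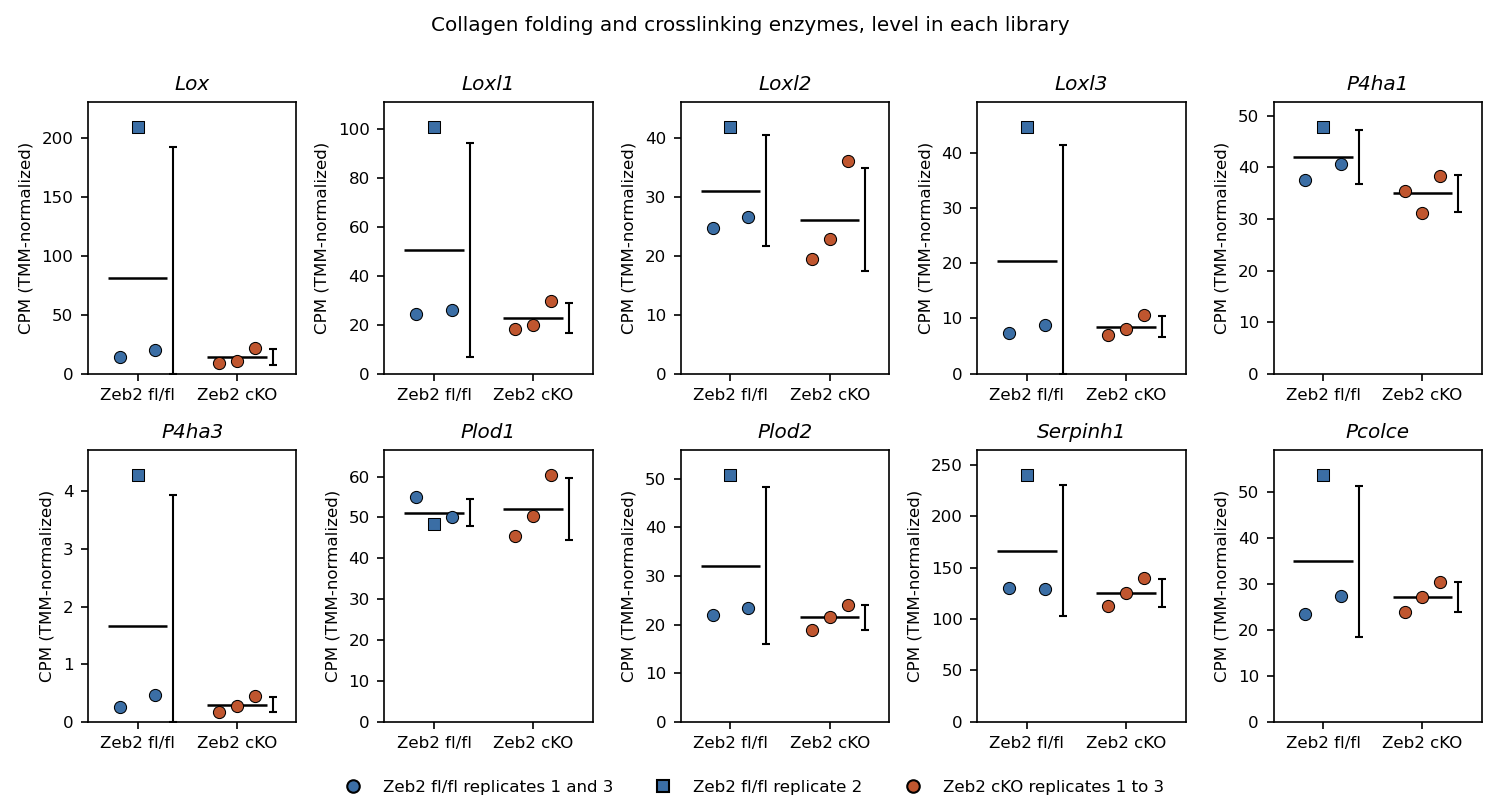
Level of each gene in CPM (linear axis from 0) in the 3 Zeb2 fl/fl and 3 Zeb2 cKO libraries; horizontal lines are group means and vertical bars are ± SD, ending at 0 where the SD exceeds the mean. Zeb2 fl/fl replicate 2 (square) is the highest library in 9 panels, and in the Plod1 panel it lies within the range of the others.

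The prolyl 4-hydroxylase subunits P4ha1 and P4ha3 catalyse the same reaction, each together with the disulfide isomerase P4hb. P4ha1 (ENSMUSG00000019916; chromosome 10, 59323296 to 59373304, plus strand, GRCm38 as for all positions) was the more abundant of the pair. P4ha1 reached 37.5, 47.8 and 40.7 CPM across Zeb2 fl/fl replicates 1 to 3, against 35.5, 31.2 and 38.2 CPM across Zeb2 cKO replicates 1 to 3. Only the highest Zeb2 cKO library reached into the Zeb2 fl/fl range. Zeb2 fl/fl hearts averaged 42.0 ± 5.30 CPM, and Zeb2 cKO hearts 35.0 ± 3.56 CPM (SD, n = 3 per genotype). Its log2 fold change of -0.26 (standard error 0.14) was -0.16 (standard error 0.11) without Zeb2 fl/fl replicate 2.

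P4ha3 (ENSMUSG00000051048; chromosome 7, 100285520 to 100319699, plus strand) was the scarcest of the 10, with 9 to 24 counts in 5 of the libraries and 188 in Zeb2 fl/fl replicate 2. P4ha3 reached 0.266, 4.28 and 0.469 CPM across Zeb2 fl/fl replicates 1 to 3, against 0.180, 0.277 and 0.447 CPM across Zeb2 cKO replicates 1 to 3. Most of its counts thus came from a single library, and the other libraries of the genotypes overlapped. The log2 fold change of -2.47 (standard error 1.06) was -0.27 (standard error 0.49) without that library.

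Sequence upstream of the start site was at hand for 5 of the 10 genes (P4ha1, P4ha3, Plod1, Pcolce and Serpinh1) from RefSeq on GRCm38.p6, as the 250 bases before the annotated start. They were searched on both strands for CACCTG, an E-box that ZEB proteins bind, and for ACGTG, the core of the hypoxia response element. The E-box was found in 1 of the 5, Pcolce, at 238 bases before the start, and in 17.2% of 32851 windows of the same length. The hypoxia core was found in P4ha1, at 16 bases before the start, and in Serpinh1, at 171 bases, and in 16.6% of all windows. The windows of P4ha1 (chr10:59323046-59323295, plus strand) and Pcolce (chr5:137611405-137611654, minus strand) show one match of each kind, in capitals, and that of P4ha3 (chr7:100285270-100285519, plus strand) is shown as a window without a match. The RefSeq start of Pcolce lies within the gene as Gencode annotates it.
P4ha1 promoter: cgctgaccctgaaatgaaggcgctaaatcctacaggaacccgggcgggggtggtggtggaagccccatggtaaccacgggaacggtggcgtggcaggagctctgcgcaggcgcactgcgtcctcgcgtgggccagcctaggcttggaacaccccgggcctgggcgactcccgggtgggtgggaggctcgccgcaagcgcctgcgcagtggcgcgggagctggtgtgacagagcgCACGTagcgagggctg
Pcolce promoter: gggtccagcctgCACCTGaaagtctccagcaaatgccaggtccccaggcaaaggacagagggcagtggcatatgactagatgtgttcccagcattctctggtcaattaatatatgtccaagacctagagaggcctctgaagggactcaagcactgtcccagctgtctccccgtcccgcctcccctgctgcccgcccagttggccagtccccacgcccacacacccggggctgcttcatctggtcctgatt
P4ha3 promoter: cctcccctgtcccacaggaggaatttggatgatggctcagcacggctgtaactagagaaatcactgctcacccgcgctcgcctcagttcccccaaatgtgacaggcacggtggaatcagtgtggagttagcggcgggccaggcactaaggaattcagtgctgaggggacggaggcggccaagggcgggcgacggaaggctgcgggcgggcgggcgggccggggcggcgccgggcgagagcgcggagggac
The P4ha3 window holds neither run of letters. A match describes letters only, and binding was not tested.

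Serpinh1 (ENSMUSG00000070436; chromosome 7, 99345376 to 99353239, minus strand), the collagen chaperone, was the most abundant of the 10 per length of exon. Its median over the 6 libraries was 53.1 CPM per kilobase, and it was above the next gene, P4ha1 at 9.20 CPM per kilobase, in 6 of 6 libraries. Serpinh1 reached 131, 240.1 and 129 CPM across Zeb2 fl/fl replicates 1 to 3, against 112, 125 and 139.5 CPM across Zeb2 cKO replicates 1 to 3. Zeb2 fl/fl replicates 1 and 3 lay inside the range of the knockouts. Its log2 fold change was -0.41 (standard error 0.27), and -0.044 (standard error 0.12) without Zeb2 fl/fl replicate 2.

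Below P4ha1 the order of median level per kilobase was Loxl1 (7.69 CPM), Plod1 (7.43 CPM), Pcolce (7.16 CPM), Loxl2 (4.74 CPM), Plod2 (4.22 CPM), Lox (3.59 CPM), Loxl3 (1.84 CPM) and P4ha3 (0.115 CPM). Some neighbours in this order were not separated: Loxl1 was above Plod1 in 3 of the 6 libraries and Plod2 above Lox in 4. Lox ranged from 1.91 to 43.8 CPM per kilobase, whereas Plod1 ranged only from 6.73 to 8.92.

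The lysyl hydroxylases Plod1 and Plod2 differed from each other mainly in Zeb2 fl/fl replicate 2. Over the other 5 libraries the highest was 1.33-fold the lowest for Plod1 and 1.27-fold for Plod2. Plod1 (ENSMUSG00000019055; chromosome 4, 147909753 to 147936767, minus strand) hydroxylates lysines within the triple helix. Plod1 reached 55.0, 48.4 and 50.2 CPM across Zeb2 fl/fl replicates 1 to 3, against 45.5, 50.3 and 60.4 CPM across Zeb2 cKO replicates 1 to 3. This was the one gene of the 10 in which Zeb2 fl/fl replicate 2 was not the highest library. The log2 fold change was 0.025 (standard error 0.14), or -0.011 without that library.

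Plod2 (ENSMUSG00000032374; chromosome 9, 92542223 to 92608428, plus strand) hydroxylates lysines at the ends of the collagen chains, which lead to pyridinoline crosslinks. Plod2 reached 22.0, 50.7 and 23.5 CPM across Zeb2 fl/fl replicates 1 to 3, against 18.9, 21.5 and 24.0 CPM across Zeb2 cKO replicates 1 to 3. Zeb2 fl/fl replicates 1 and 3 lay among the knockouts. Its log2 fold change of -0.58 (standard error 0.33) was -0.080 (standard error 0.12) without replicate 2. Exons of Plod2 overlap Gm38391 on the opposite strand over 6.42% of their length, and strand handling in counting is not given in the sources used here.

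Pcolce (ENSMUSG00000029718; chromosome 5, 137605103 to 137613784, minus strand) enhances the removal of the C-terminal propeptide by BMP1. Pcolce reached 23.6, 53.8 and 27.5 CPM across Zeb2 fl/fl replicates 1 to 3, against 24.0, 27.2 and 30.5 CPM across Zeb2 cKO replicates 1 to 3. Apart from Zeb2 fl/fl replicate 2 the genotypes overlapped. The log2 fold change of -0.36 (standard error 0.31) became 0.10 (standard error 0.13) without it.

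Lysyl oxidases are copper-dependent enzymes that start the crosslinks of collagen and elastin, and Lox (ENSMUSG00000024529; chromosome 18, 52516067 to 52529867, minus strand) is the founding member. Lox reached 14.4, 209 and 19.9 CPM across Zeb2 fl/fl replicates 1 to 3, against 9.13, 10.9 and 21.6 CPM across Zeb2 cKO replicates 1 to 3. Zeb2 fl/fl replicate 2 was 14.5-fold above the median of the other 5 libraries, and the highest Zeb2 cKO library lay above both other Zeb2 fl/fl libraries. Zeb2 fl/fl hearts averaged 81.1 ± 111 CPM, and Zeb2 cKO hearts 13.9 ± 6.76 CPM (SD, n = 3 per genotype). On the log2 scale the genotypes differed by -2.54 (standard error 1.05), with an unadjusted p of 0.0460 and an adjusted p of 0.957 from edgeR's model across all genes. Without replicate 2 it was -0.30 (standard error 0.35).

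Loxl1 (ENSMUSG00000032334; chromosome 9, 58287738 to 58313186, minus strand) is known for its part in elastic fibres. Loxl1 reached 24.5, 101 and 26.2 CPM across Zeb2 fl/fl replicates 1 to 3, against 18.3, 19.9 and 29.8 CPM across Zeb2 cKO replicates 1 to 3. As for Lox, Zeb2 cKO replicate 3 lay above Zeb2 fl/fl replicates 1 and 3. Its log2 fold change of -1.16 (standard error 0.57) was -0.16 (standard error 0.20) without replicate 2.

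Loxl3 (ENSMUSG00000000693; chromosome 6, 83034173 to 83052562, plus strand) is a further member of the family. Loxl3 reached 7.35, 44.6 and 8.91 CPM across Zeb2 fl/fl replicates 1 to 3, against 7.01, 8.04 and 10.6 CPM across Zeb2 cKO replicates 1 to 3. The log2 fold change of -1.25 (standard error 0.68) turned to 0.075 (standard error 0.19) without replicate 2. Exons of Loxl3 overlap those of Htra2 on the opposite strand over 11.6% of their length. Htra2 had 266 to 485 counts per library, against 277 to 1959 for Loxl3.

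Loxl2 (ENSMUSG00000034205; chromosome 14, 69609068 to 69695834, plus strand) had a smaller fold in Zeb2 fl/fl replicate 2 than Lox, Loxl1 and Loxl3. Loxl2 reached 24.6, 41.8 and 26.6 CPM across Zeb2 fl/fl replicates 1 to 3, against 19.5, 22.8 and 35.97 CPM across Zeb2 cKO replicates 1 to 3. Zeb2 cKO replicate 3 lay above Zeb2 fl/fl replicates 1 and 3 here too. For Loxl2 the log2 fold change was -0.25 (standard error 0.29), or 0.032 (standard error 0.24) without replicate 2. The count of Loxl2 is uncertain, because a run of 2348 bases of its longest transcript, which has 5316, is identical to Gm21451, an unprocessed pseudogene on the same chromosome (69390854 to 69480287). Gm21451 held 0 to 5 counts per library, and how reads that match both were counted is not given in the sources used here.

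**Figure D2:**
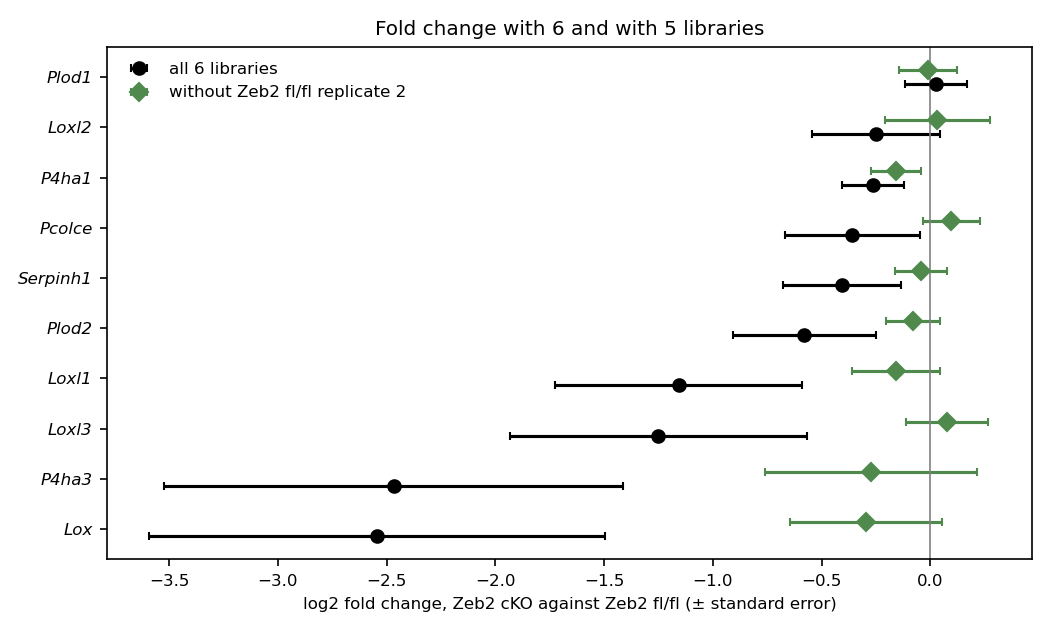
Log2 fold change of each gene between Zeb2 cKO and Zeb2 fl/fl with its standard error from edgeR, with all 6 libraries (circles) and without Zeb2 fl/fl replicate 2 (diamonds). With 6 libraries the values run from -2.54 (Lox) to 0.025 (Plod1), and with 5 libraries all lie between -0.30 and 0.10.

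In Zeb2 fl/fl replicate 2 the folds over the median of the other 5 libraries spread widely. On the log2 CPM scale with a prior count of 2, they were 14.5-fold for Lox, 13.5-fold for P4ha3, 5.52-fold for Loxl3 and 4.10-fold for Loxl1. They were 2.30-fold for Plod2, 1.97-fold for Pcolce, 1.86-fold for Serpinh1, 1.70-fold for Loxl2, 1.28-fold for P4ha1 and 0.962-fold for Plod1. Lysyl oxidases other than Loxl2 and the scarce P4ha3 thus had the largest folds, and P4ha1 and Plod1 the smallest. These folds describe 1 library and carry no test.

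Col1a1 (ENSMUSG00000001506; chromosome 11, 94936224 to 94953042, plus strand) encodes the main chain of type I collagen, a chief substrate of these enzymes. Col1a1 reached 122, 725 and 129 CPM across Zeb2 fl/fl replicates 1 to 3, against 85.4, 106 and 161 CPM across Zeb2 cKO replicates 1 to 3. Zeb2 fl/fl replicate 2 was at 5.96-fold the median of the others, and only Lox and P4ha3 of the 10 genes had a larger fold there. For Col1a1 the log2 fold change was -1.47 (standard error 0.73), and -0.091 (standard error 0.24) without replicate 2.

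Across the 6 libraries Pearson's r of log2 CPM with Col1a1 was over 0.9 in 7 of the 10 genes, where 12% of all genes tested had such an r, and its median over the 10 was 0.991. It was 0.998 for Serpinh1, 0.998 for Loxl1, 0.996 for Plod2, 0.996 for Lox, 0.991 for Loxl3, 0.991 for P4ha3 and 0.975 for Pcolce. It was 0.871 for Loxl2, 0.841 for P4ha1 and -0.048 for Plod1. Two-sided exact permutation tests gave p = 0.00139 for Lox, Loxl1, Loxl2 and Plod2, 0.00278 for Serpinh1, 0.00556 for Loxl3 and P4ha3, 0.0111 for Pcolce, 0.0292 for P4ha1 and 0.921 for Plod1. After Benjamini-Hochberg adjustment over all genes tested these exact p-values lay between 0.0595 and 0.949, so 0 of the 10 passed 0.05.

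Spearman's rho with Col1a1 was 1 for Lox, Loxl1, Loxl2 and Plod2, meaning that the 6 libraries stood in the same order (exact permutation p = 0.00278, adjusted 0.102). For Serpinh1 and Loxl3 rho was 0.943 (exact permutation p = 0.0167), for P4ha1 and P4ha3 0.886 (p = 0.0333), for Pcolce 0.829 (p = 0.0583) and for Plod1 0.257 (p = 0.658). Adjusted values of these 6 were from 0.173 to 0.854. The libraries farthest from the median of Col1a1 were Zeb2 fl/fl replicate 2 and Zeb2 cKO replicate 1. Without both, r over the other 4 libraries ran from 0.598 (Pcolce) to 0.980 (Loxl2), and was 0.822 for Plod1, with no test. With only Zeb2 fl/fl replicate 2 left out, r was over 0.9 in 6 of the 10 and in 4.02% of all genes tested. Plod1 was among these 6, at 0.915, whereas its r with all libraries was -0.048. The median over the 10 was then 0.932, and the lowest value was 0.546, for P4ha1. In those 5 libraries Zeb2 cKO replicate 3 was the highest in 8 of the 10 genes, as in 20.6% of all genes tested, and it was also the highest for Col1a1.

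**Figure D3:**
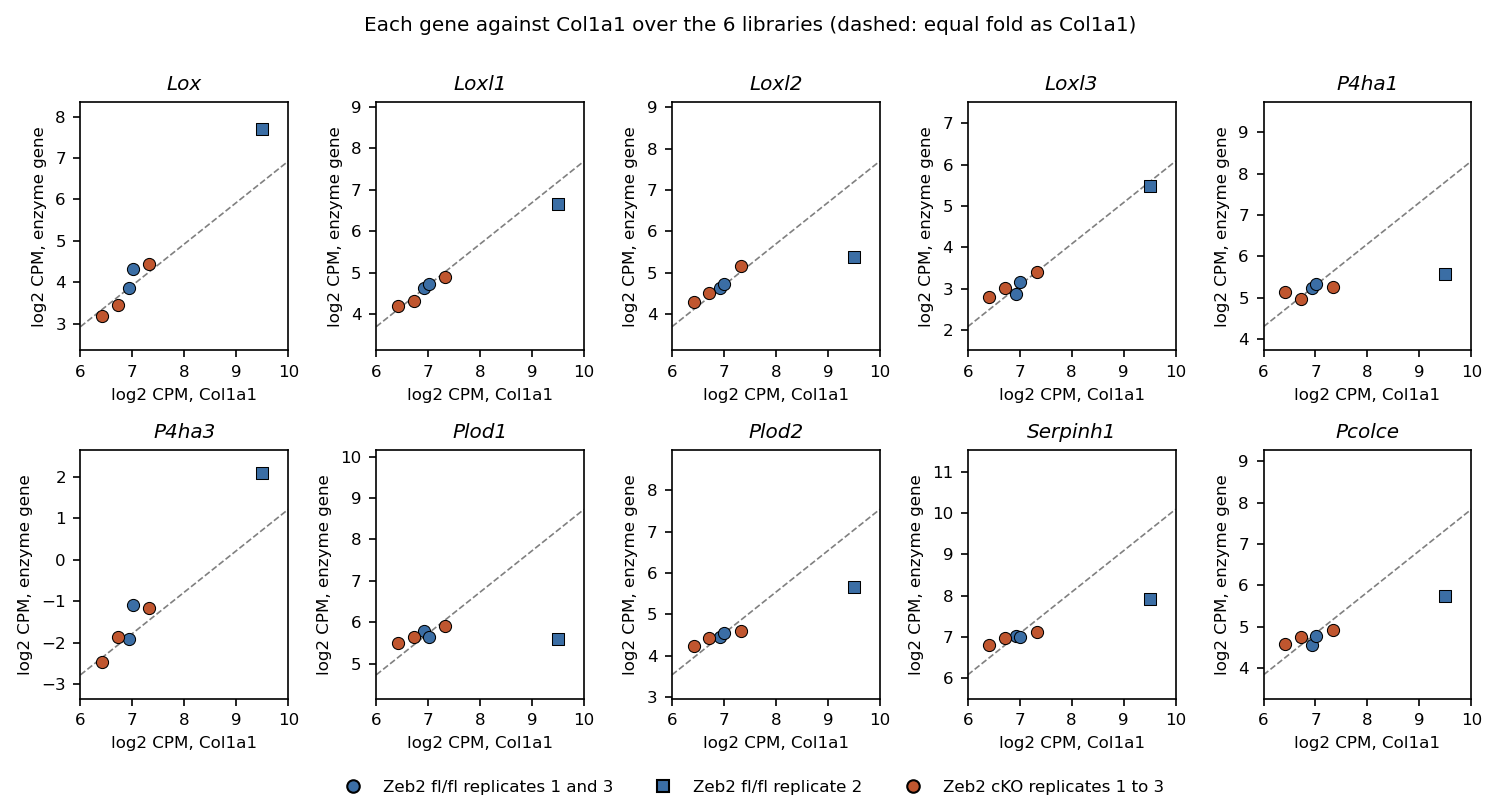
Log2 CPM of each gene against log2 CPM of Col1a1 in the 6 libraries; the dashed line has a slope of 1 and passes through the medians of the 5 libraries other than Zeb2 fl/fl replicate 2. That library (square) lies above the line for Lox and P4ha3, near it for Loxl3, and far below it for Plod1 and P4ha1.

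The genes also differed in their proportion to Col1a1 within a library. Per exon length and as a percentage of Col1a1, Lox stood at 16.3, 39.6 and 21.2% across Zeb2 fl/fl replicates 1 to 3 and at 14.7, 14.2 and 18.5% across Zeb2 cKO replicates 1 to 3. Zeb2 fl/fl replicate 2, which had the most Col1a1, thus also had the most Lox per Col1a1, and the same held for P4ha3, at 1.24% against 0.441 to 0.763% in the others. Such a proportion, higher there than in each other library, was found in 0.264% of all genes tested. In 7 of the 10 genes that library had the lowest proportion, which was so in 97.7% of all genes tested, since Col1a1 itself is the denominator. Serpinh1 was at 89.0% there and at 233 to 354% in the others, and Plod1 at 6.48% there and at 36.4 to 51.7% in the others. Loxl3 had the narrowest relative range of the 10, with 8.62, 8.78 and 9.87% in Zeb2 fl/fl and 11.7, 10.9 and 9.36% in Zeb2 cKO hearts.

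Between genotypes, the log2 difference in proportion to Col1a1 (Zeb2 cKO minus Zeb2 fl/fl) ran from -0.60 for Lox to 1.01 for Plod1, with a median of 0.58. Two-sided exact permutation tests gave p from 0.1 to 0.8, and 0.1 is the smallest that 3 libraries against 3 can give. Loxl2 alone had that value, at 24.6, 7.01 and 25.1% across the Zeb2 fl/fl and 27.8, 26.2 and 27.2% across the Zeb2 cKO replicates. Without Zeb2 fl/fl replicate 2 the differences ran from -0.24 (Lox) to 0.24 (Pcolce).

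**Figure D4:**
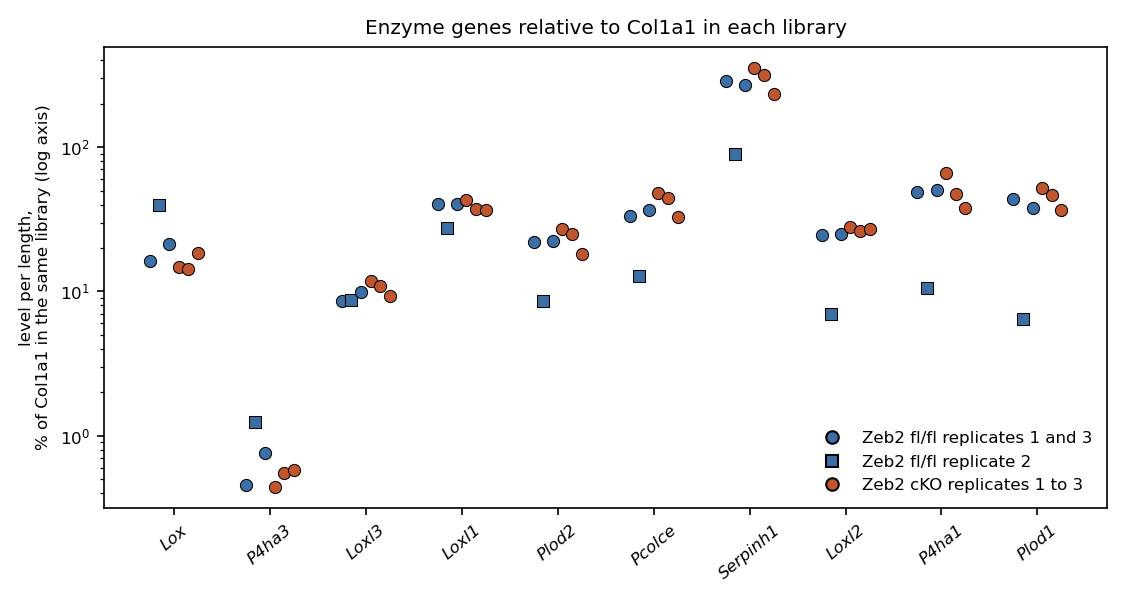
Level per exon length of each gene as a percentage of Col1a1 in the same library, on a log axis, with genes ordered by how far Zeb2 fl/fl replicate 2 (square) lies from the median of the others. The square is highest for Lox and P4ha3, inside the range of the other libraries for Loxl3, and lowest in the other 7.

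Of 33 further genes that modify, fold, export or trim collagen, 0 passed an adjusted p of 0.05 in edgeR's test, and 0 had an unadjusted p under 0.05. Their log2 fold changes were under -0.2 in 19 and over 0.2 in 2. Of the 14746 genes tested, 3335 were under -0.2 and 2351 over 0.2, which also applies to the lists below. The median of the 33 was -0.24, and 0.027 without Zeb2 fl/fl replicate 2, which was the highest library in 26 of the 33. Tmem38b encodes a cation channel of the endoplasmic reticulum. It had 6.58, 7.57 and 7.5 CPM across the Zeb2 fl/fl libraries and 5.48, 6.36 and 6.44 CPM in the knockouts. Its log2 fold change was -0.24, and -0.21 without Zeb2 fl/fl replicate 2. Tmem38b was among the 3 of the 33 in which the groups did not overlap, as in 6.36% of genes tested. Adamts2, which removes the N-terminal propeptide, had 37.4, 184 and 45.2 CPM across the Zeb2 fl/fl libraries and 31.1, 37.3 and 56.6 CPM in the knockouts. P3h3, of the prolyl 3-hydroxylase family, had 7.62, 24.7 and 8.70 CPM across the Zeb2 fl/fl libraries and 7.39, 7.40 and 9.14 CPM in the knockouts. In both, Zeb2 fl/fl replicate 2 was the single high library, as for Lox and Loxl1.

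Close relatives of the 10 genes varied in this. P4ha2, another catalytic subunit of prolyl 4-hydroxylase, had 18.1, 15.5 and 15.9 CPM across the Zeb2 fl/fl libraries and 19.7, 17.2 and 15.7 CPM in the knockouts. Loxl4, the remaining lysyl oxidase, had 1.35, 1.96 and 1.74 CPM across the Zeb2 fl/fl libraries and 1.84, 1.11 and 1.92 CPM in the knockouts, and Zeb2 fl/fl replicate 2 was its highest library by a small margin, at 1.12-fold the median of the others. Plod3, the remaining lysyl hydroxylase, had 17.0, 23.4 and 16.4 CPM across the Zeb2 fl/fl libraries and 14.0, 14.3 and 17.7 CPM in the knockouts, and was also highest in that library, with an r of 0.956 with Col1a1. Tgm2, a transglutaminase that links matrix proteins by another chemistry, was lowest in Zeb2 fl/fl replicate 2, at 94.8 CPM against 123 to 153 CPM in the others. These 4 were chosen after their values were seen.

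Among 8 collagen and elastin genes, the substrates, 6 had a log2 fold change under -0.2 and 0 passed the adjusted test, with a median of -1.31, and of -0.13 without Zeb2 fl/fl replicate 2. Eln, which encodes elastin, had 23.8, 161 and 16.7 CPM across the Zeb2 fl/fl libraries and 7.45, 21.5 and 25.8 CPM in the knockouts. Col3a1, a fibrillar collagen, had 722, 4872 and 822 CPM across the Zeb2 fl/fl libraries and 615, 779 and 903 CPM in the knockouts. The basement membrane collagen Col4a1, also chosen after its values were seen, had 786, 552 and 705 CPM across the Zeb2 fl/fl libraries and 454, 652 and 843 CPM in the knockouts and was highest in Zeb2 cKO replicate 3.

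Of 12 chaperones of the endoplasmic reticulum that serve secreted proteins in general, 3 had a log2 fold change under -0.2, 0 passed the adjusted test, and the median was -0.073, or 0.026 without Zeb2 fl/fl replicate 2. Pdia3, a disulfide isomerase, had 38.9, 100.03 and 48.3 CPM across the Zeb2 fl/fl libraries and 42.4, 42.4 and 45.6 CPM in the knockouts. Pdia6 and Sdf2l1 were the others of the 3, with log2 fold changes of -0.30 and -0.62. Without Zeb2 fl/fl replicate 2 these were -0.14 and -0.18, and 0 of the 12 were under -0.2. Across these 12 the median r with Col1a1 was 0.512, against 0.991 for the 10 genes. Without Zeb2 fl/fl replicate 2 it was -0.510, against 0.932 for the 10 genes.

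Hypoxia response genes were set beside the 10 because P4ha1, Plod2, Lox and Loxl2 are known targets of hypoxia-inducible factors. Of 13 tested, 2 were under -0.2, 0 over 0.2 and 0 passed the adjusted test, with a median log2 fold change of -0.043, or -0.058 without Zeb2 fl/fl replicate 2, which was the highest library in 2. Egln3, an oxygen-sensing prolyl hydroxylase, had 32.3, 28.1 and 40.8 CPM across the Zeb2 fl/fl libraries and 28.5, 23.1 and 32.8 CPM in the knockouts. The glycolytic Ldha and Pgk1 had log2 fold changes of 0.20 and 0.18, or 0.086 and 0.10 without Zeb2 fl/fl replicate 2.

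Marker genes of cell types moved in the same library. Over 8 markers of activated fibroblasts the sum was 425, 1974 and 577 CPM across the Zeb2 fl/fl libraries and 314, 411 and 719.6 CPM in the knockouts, which is the order of Col1a1, and 7 of the 8 were highest in Zeb2 fl/fl replicate 2. Over 8 general fibroblast markers it was 961, 2712 and 1151 CPM across the Zeb2 fl/fl libraries and 1453, 1220 and 1082 CPM in the knockouts, with 8 of 8 highest in that library. Without that library the median r with Col1a1 was 0.854 for the activated and -0.209 for the general markers. The sum over 9 macrophage markers was 824 CPM in Zeb2 fl/fl replicate 2 and 205 to 287 CPM in the others, with 9 of 9 highest there. Over 8 cardiomyocyte markers it was 11430 CPM there and 18350 to 23220 CPM in the others, so transcripts of heart muscle were present in every library. The part of these cell types in the differences between libraries was not tested.

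The 7 endothelial markers summed to 385 CPM in Zeb2 fl/fl replicate 2 and to 488 to 583 CPM in the others, and 7 markers of smooth muscle and pericytes to 643 and 872 to 984 CPM. Against these sums, 2 of the 7 in each list were highest in that library, among them Emcn, at 1.65-fold the median of the others, and Tagln, at 2.13-fold, both chosen after their values were seen. The 5 mesothelial markers summed to 10.1 CPM there and 4.61 to 9.52 CPM in the others. Adipocyte markers were scarce, with 2 of 6 tested, and all 6 together summed to 0.584, 0.410 and 0.990 CPM across the Zeb2 fl/fl libraries and 3.30, 1.31 and 1.25 CPM in the knockouts. Lep, which encodes leptin, had 0 or 1 count in each library. In every one of these marker lists 0 genes passed the adjusted test.

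Over the 6 libraries the genes outside the set that ran closest to the mean log2 CPM of the 10 were Col5a2 (r = 0.9998), Dpysl2 (0.9997), Mmgt2 (0.9985), Pik3cd (0.9984), Fat1 (0.9983), Adamts2 (0.9980), Nid1 (0.9976) and Col1a1 (0.9974). Without Zeb2 fl/fl replicate 2, r was between 0.976 and 0.998 for these 8, which were picked from all genes tested by this r. Among the 45 pairs of the 10 genes themselves the median r was 0.874, with 21 pairs over 0.9, and 0.823 without that library, with 14 pairs over 0.9. All pairs share the same libraries.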

How the data were processed

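RNA from the hearts of 6 infarcted mice, 3 per genotype, was sequenced. Groups and replicate numbers were taken from the sample labels. The authors prepared stranded libraries from RNA depleted of ribosomal RNA, aligned the reads, and deposited 1 table of raw counts per gene of Gencode M4 (GRCm38), made with the STAR workflow. The STAR version, strand option and treatment of reads with several matches are not given in the sources used here. All 6 columns of the table were assigned to samples by their names, leaving 0 unused.

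Symbols, positions and exon lengths came from Gencode M21 of the same build, and 14573 of the 14746 genes tested had a symbol there. TMM normalization was applied to the counts, which were tested with glmQLFit and glmQLFTest in edgeR 4.0.16 (R 4.3.3) after filterByExpr, with genotype as the factor and Benjamini-Hochberg adjustment over all genes tested. This replaces the DESeq test of the methods. Standard errors were the log2 fold change divided by the square root of F. Log2 CPM used a prior count of 2. Correlations and proportions used exact permutation over 720 orders of the libraries, or over the splits of 3 against 3. Near-identical transcripts were searched with BLAST 2.17.0 (at least 75 bases at 95% identity), and promoter windows were read from RefSeq tables. DESeq2 1.42.0 was run as an alternative. In simulated libraries for this comparison, with 14591 genes tested, edgeR called 21 of 100 genes changed by 1 and 81 of 100 changed by 2 on the log2 scale, beside 5 of 14396 unchanged genes, and DESeq2 called 57 and 90. The design text gives 3 mice per genotype, and p-values measure the spread between these libraries.

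The 10 genes and the 12 other lists (partners, substrates, general chaperones, hypoxia response and 8 lists of cell type markers) were chosen with earlier results of these data known. Genes named in the text are the 10, Col1a1 and Zeb2, the 3 genes of smallest p in each of the 4 lists other than cell type markers, the 8 genes most correlated with the mean of the 10, and the exceptions marked as chosen after their values were seen, to which Col4a1 and Lep belong. Total counts were 37288174 to 51136331 per library, and 14301225 to 19024394 of these lay outside the mitochondrially encoded genes. Of the 10 genes only P4ha3 had fewer than 277 counts in a library. Counting error was thus small except for P4ha3, and the spread between mice set the precision. Replicate numbers 1 to 3 occur in both groups but mark different animals.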

Additional observations from a re-analysis of the deposited data

How the results depend on the processing

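In every alternative run, 0 of the 10 genes had an adjusted p under 0.05. These were DESeq2 size factors, mitochondrially encoded genes left out, no filter on low counts, the replicate number as a block, DESeq2's Wald test, and each library left out in turn. Adjusted p-values of the 10 genes lay between 0.596 and 0.9999, and unadjusted p-values under 0.05 were found for 122 to 1134 of all genes in edgeR. DESeq2 gave no adjusted p for Lox. With the replicate block the median log2 fold change of the 10 was -0.41, against -0.49 without it, and no call changed, but Lox moved to -1.44, P4ha3 to -1.64 and Loxl3 to -0.73. Deviations of same-numbered libraries from their group means correlated at 0.088, -0.14 and -0.087. Those of differently numbered libraries correlated at -0.26 to 0.24. With 3 libraries per group these values cannot tell whether the shared numbers pair the mice.

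Leaving out single libraries moved the median log2 difference relative to Col1a1 between 0.074 (without Zeb2 fl/fl replicate 2) and 0.835 (without Zeb2 fl/fl replicate 1), against 0.578 with all 6. It moved that of the fold change itself between -0.68 and -0.062 for the same libraries. The log2 fold change changed sign for 4 genes, ranging from -0.55 to 0.032 for Loxl2, -1.65 to 0.075 for Loxl3, -0.58 to 0.10 for Pcolce and -0.10 to 0.11 for Plod1, and the other 6 stayed negative. Each of the 4 turned without Zeb2 fl/fl replicate 2, and Plod1 also without Zeb2 cKO replicate 3. Col1a2 in place of Col1a1, chosen after seeing the data, gave a median r of 0.989 and a median difference of 0.458. The cause of these shifts was not tested. Changes of 1 on the log2 scale could be missed, since edgeR called 21 and DESeq2 57 of 100 simulated ones. Among the 10 genes larger differences could be missed too. Lox, at -2.54 with a standard error of 1.05, had an adjusted p of 0.957 in edgeR's test.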
